A study of Homo sapiens with 6 samples.

Results

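The Rab GTPases are the largest family of small GTPases and act as switches of membrane traffic. The genes described here were every row of the deposited expression table whose gene name was RAB, a number and at most 1 letter. The rule found 46 genes of 11314 in the table, and all 46 passed the filter on low values, 0.5 FPKM on average over the 6 libraries (FPKM, a fragment count scaled to transcript length and library size). Rab-like genes with other name forms were not counted as members.

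Messenger RNA was measured in SNU-668, a human gastric cancer cell line, in a subline resistant to erastin, a compound that blocks cystine uptake and kills cells by ferroptosis. Titles named SPIN1 in 3 libraries and NC in 3 libraries, and the groups are called titled SPIN1 and titled NC after them. All 6 came from the same erastin-resistant line, and shRNA against SPIN1, or a control shRNA, was the treatment named in the labels. The labels contradicted each other: the genotype entries gave wild type for the libraries titled SPIN1 and a SPIN1 knockdown for those titled NC, the series description named ALKBH3 in place of SPIN1, and the RLS3 that opens each title was not explained. SPIN1, which encodes a reader of methylated histones, had 0.324, 0.629 and 2.49 FPKM in the libraries titled SPIN1, against 0.322, 6.18 and 7.97 FPKM in those titled NC. The groups overlapped, and the difference did not pass the threshold (limma on log2(FPKM + 1), p adjusted over all genes tested = 0.307; exact two-sided permutation test, p = 0.4, where 0.1 is the smallest possible). ALKBH3, which encodes a nucleic acid demethylase, had 7.40, 10.3 and 12.5 FPKM in the libraries titled SPIN1, against 14.8, 10.9 and 10.8 FPKM in those titled NC (exact two-sided permutation test, p = 0.4). Neither gene settled which group carried a knockdown, so each direction below is that of the titles. The labels did not say whether replicates were grown separately, and the p-values therefore measure spread among these libraries that may be technical.

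A Rab protein is active when bound to GTP and inactive when bound to GDP. Guanine nucleotide exchange factors load GTP, GTPase-activating proteins trigger its hydrolysis, and GDP dissociation inhibitors carry the inactive protein, anchored by prenyl groups, between membranes. Each active Rab recruits effectors such as motors, tethers and sorting factors to its own compartment, so that different Rabs mark the Golgi, the endosomes, the recycling compartment and secretory vesicles.

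The 6 libraries were close in their bulk values, but some of these values were apart by title. The median FPKM was 5.16, 5.19 and 5.49 in the libraries titled SPIN1, against 4.91, 4.99 and 5.12 in those titled NC. Genes listed at 0 numbered 24, 26 and 30 in the libraries titled SPIN1, against 31, 33 and 31 in those titled NC. Mitochondrial genes took 32.2% to 38.4% of the summed FPKM, and for this share the groups overlapped. The read depth behind an FPKM value is unknown here. Of 10 markers of gastric epithelial cells, 4 had rows. The keratins KRT8 and KRT18 were among the genes that passed the test (adjusted p = 0.0153 and 0.0399), with means of 66.3 ± 21.2 FPKM and 117 ± 30.3 FPKM in the libraries titled SPIN1, against 29.5 ± 4.59 FPKM and 71.6 ± 7.38 FPKM in those titled NC (SD, n = 3 each), while EPCAM and TFF1 averaged under 2 FPKM in each group. The summed level of these 4 markers ranged over 141 to 243 FPKM in the libraries titled SPIN1 and over 96.8 to 115 FPKM in those titled NC. KRT19, CDH1, CLDN18, TFF2, MUC5AC and GKN1 were not analysed here. Of 13 markers of blood, fibroblast, endothelial and neuronal cells, 5 had rows and the others were not analysed here, with summed levels of 179 to 266 FPKM in the libraries titled SPIN1 and 200 to 226 FPKM in those titled NC. Most of that sum was the collagen gene COL3A1, at 213 ± 42.7 FPKM in libraries titled SPIN1 and 183 ± 12.9 FPKM in libraries titled NC (SD, n = 3 each). The fibroblast gene DCN was higher in libraries titled SPIN1 (4.55 ± 1.10 against 1.86 ± 0.312 FPKM, adjusted p = 0.00902), and the monocyte gene CD14 was lower (11.5 ± 3.39 against 24.1 ± 0.760 FPKM, adjusted p = 0.0116; SD, n = 3 each). In bulk RNA a smaller share of cells of a type and less RNA per cell cannot be told apart, and the part of these markers in the Rab values was not tested.

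Rab transcripts covered a wide range of levels. RAB1B, which acts in transport from the endoplasmic reticulum (ER) to the Golgi, had the highest mean, at 113, 106 and 92.3 FPKM in the libraries titled SPIN1 and 105, 92.2 and 90.0 FPKM in those titled NC. RAB7A, the Rab of late endosomes and lysosomes, followed at 77.6, 70.6 and 127 FPKM in the libraries titled SPIN1 and 111, 74.5 and 82.7 FPKM in those titled NC. The groups of both genes overlapped, and the log2 differences, titled SPIN1 minus titled NC on the log2(FPKM + 1) scale, were 0.11 for RAB1B (SE 0.11, adjusted p = 0.473) and 0.0052 for RAB7A (SE 0.25, adjusted p = 0.991). RAB11B and RAB5C were the other members that averaged 50 FPKM or more, and these 4 genes made up 40.9% to 46.9% of the summed Rab FPKM of a library. At the low end, 12 members averaged under 2 FPKM, down to 0.603 FPKM for RAB6B. The summed Rab FPKM was 757, 730 and 793 in the libraries titled SPIN1, against 776, 715 and 671 in those titled NC. These sums overlapped, and they were 0.382% to 0.434% of the summed FPKM of all non-mitochondrial genes.

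**Figure D1:**
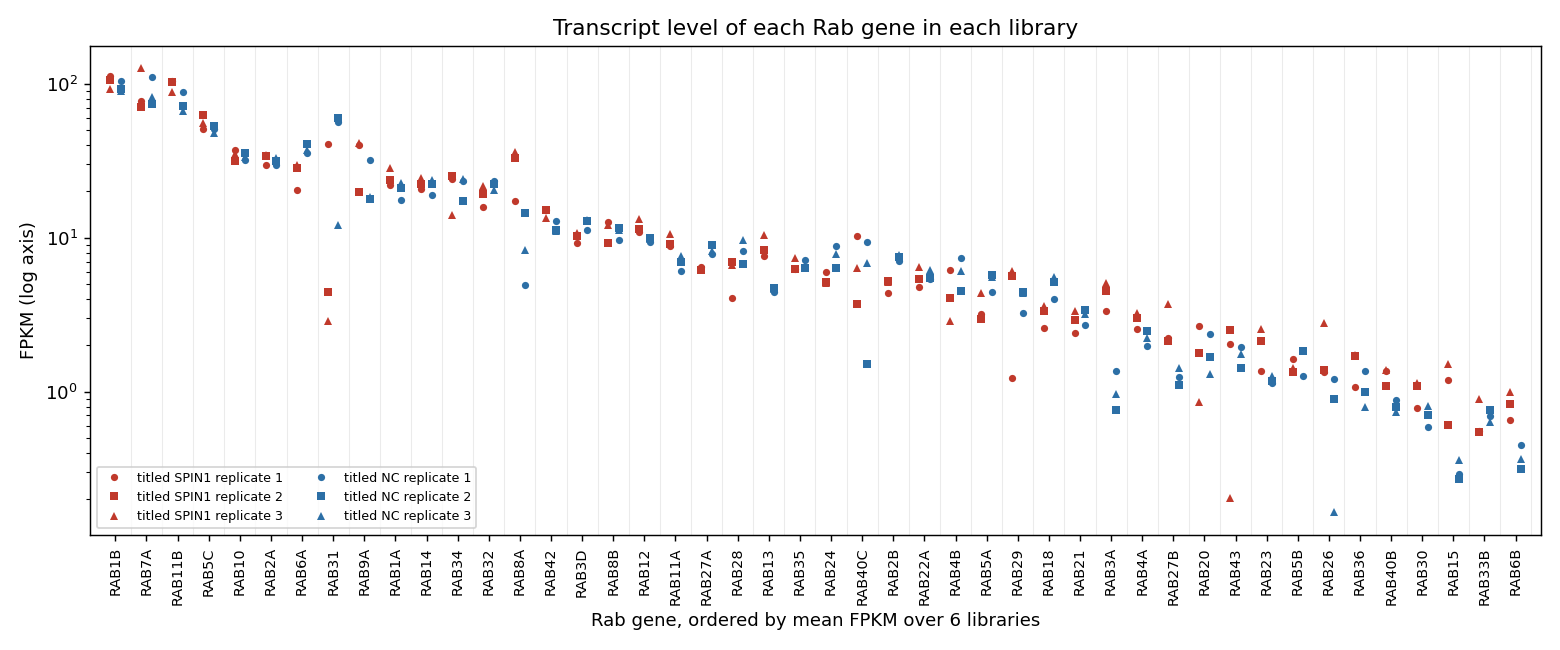
FPKM of each of the 46 Rab genes in each library on a log axis, with genes ordered by their mean over the 6 libraries; red symbols are libraries titled SPIN1, blue symbols those titled NC, and circle, square and triangle are replicates 1, 2 and 3. Levels run from about 100 FPKM for RAB1B to under 1 FPKM for RAB6B, and the symbols of RAB31, RAB40C, RAB29, RAB43 and RAB26 are spread widely within a title.

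Of the 46 Rab genes, 8 rose and 3 fell in the libraries titled SPIN1 relative to those titled NC, at an adjusted p under 0.05. Those that rose were RAB3A, RAB13, RAB6B, RAB15, RAB27B, RAB8A, RAB11A and RAB40B, and those that fell were RAB2B, RAB27A and RAB6A. The 8 genes were 17.4% of the Rab genes, where 17.3% of all 11061 genes tested were called higher. The 3 genes were 6.52%, where 10.3% of all genes were called lower, and the 11 calls together were 23.9%, where 27.6% of all genes were called. The family as a whole therefore had calls at a share near that of all genes, and its median log2 difference of 0.048 stood beside 0.049 over all genes tested. The median size of the difference, whatever its sign, was 0.287 among Rab genes and 0.270 among all genes. With the pseudocount of 1 FPKM, RAB3A and RAB8A passed both the test and a log2 difference of at least 1, which 5.84% of all genes did. That count depends on the pseudocount: with 0.1 in place of 1, RAB15 (1.49) and RAB27B (1.00) passed both as well, and with 0.01 RAB6B (1.10) did too.

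The groups did not overlap for 21 Rab genes, or 45.7%, where 46.0% of all genes had groups apart. In 14 of them the libraries titled SPIN1 were the higher ones, where 27.2% of all genes were apart in that direction, and in 7 the lower ones, where 18.8% of all genes were. The values were on the authors' own scale, and other scalings moved the balance of the calls. Of all calls 62.7% were in the higher direction, against 53.4% after dividing each library by its median and 50.4% after quantile normalization, and the Rab calls were then 7 higher and 7 lower, and 6 higher and 7 lower. RAB18, RAB24, RAB5A and RAB3D were called lower after either scaling, with adjusted p between 0.0227 and 0.0432. The call of RAB40B was lost under both scalings, at adjusted p of 0.0541 with library medians and 0.109 with quantiles, and that of RAB11A was lost with quantiles, at 0.0517. The counts also depended on single libraries, among all genes as well as among the Rabs. With 1 library left out, the share of all genes called higher lay between 10.2% and 18.5% and the share called lower between 5.80% and 11.3%. Higher and lower calls numbered 7 and 4 without titled SPIN1 replicate 1, 5 and 1 without replicate 2, and 3 and 3 without replicate 3. They numbered 4 and 3 without titled NC replicate 1, 3 and 1 without replicate 2, and 2 and 0 without replicate 3. Of the 11 calls, RAB3A and RAB13 stayed past the threshold in all 6 fits that each left out 1 library.

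**Figure D2:**
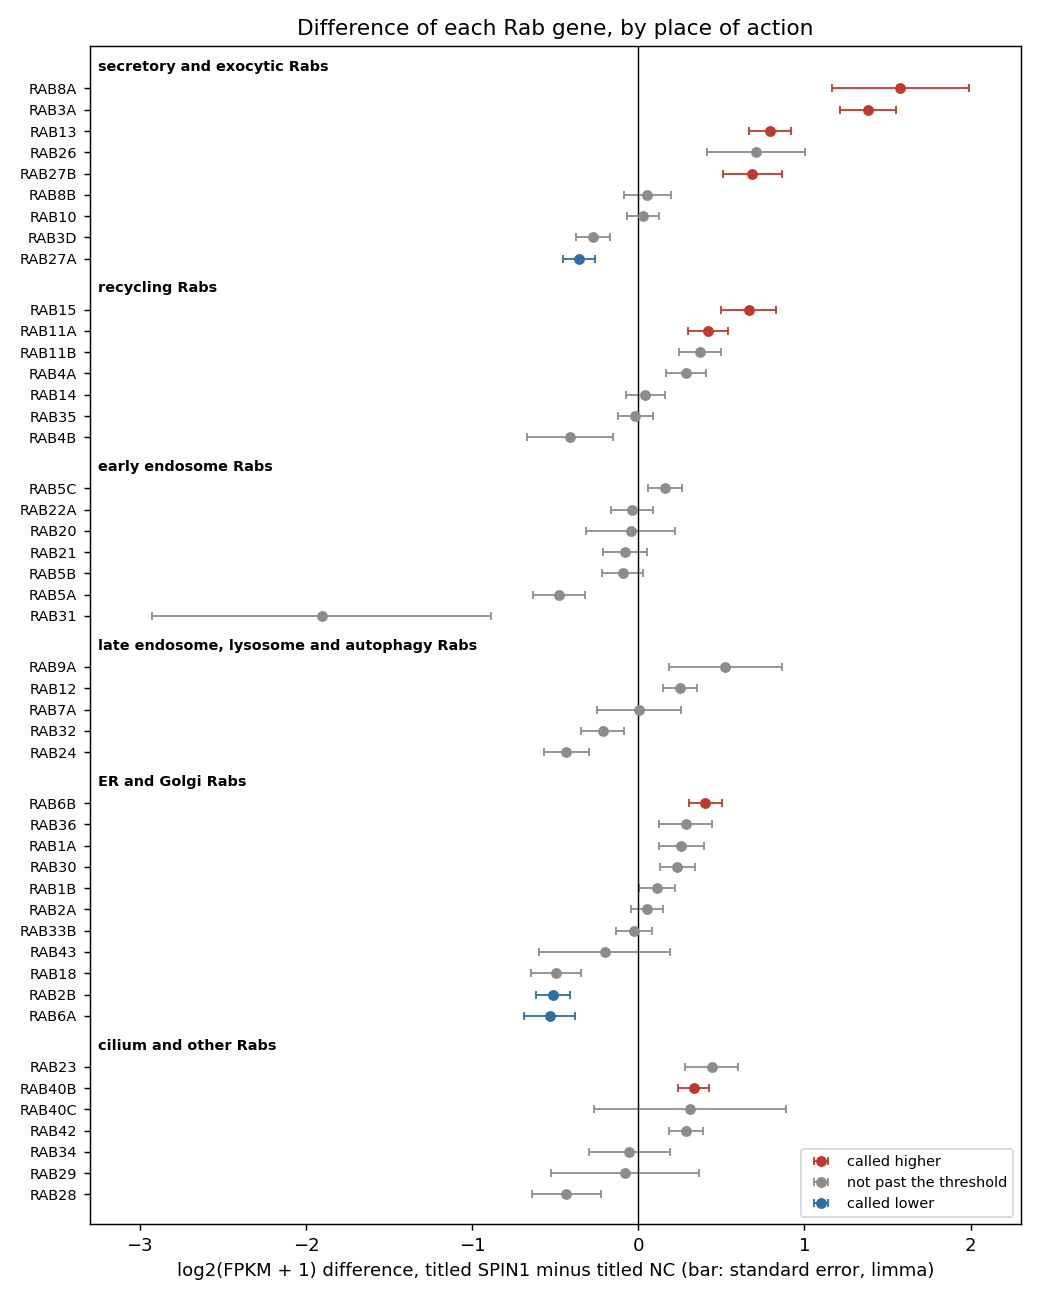
Log2 difference of each Rab gene, titled SPIN1 minus titled NC, on the log2(FPKM + 1) scale, with genes grouped by the compartment they serve; bars are standard errors from limma, red marks genes called higher, blue marks genes called lower and grey marks genes not past the threshold. RAB8A and RAB3A lie farthest to the right at 1.58 and 1.38, and RAB31 lies farthest to the left at -1.91 with the widest bar.

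The secretory and exocytic Rabs held 5 of the 11 calls. Of 9 members, 4 rose (RAB3A, RAB13, RAB27B and RAB8A) and 1 fell (RAB27A), and their median log2 difference was 0.69. These calls were 44.4% and 11.1% of the members, where 17.3% of all genes were called higher and 10.3% lower. The role groups were chosen with earlier results known, so the count is a description. Their summed level was 97.4, 106 and 122 FPKM in the libraries titled SPIN1, against 74.2, 91.0 and 81.6 FPKM in those titled NC. Each titled SPIN1 sum was above each titled NC sum, but without RAB8A the sums were 80.0, 73.5 and 86.0 FPKM in libraries titled SPIN1 and 69.2, 76.4 and 73.3 FPKM in libraries titled NC, which overlap.

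RAB3A, known for its work on synaptic vesicles and regulated exocytosis, lies on the minus strand at chr19:18307594-18314884 (hg19). It had 3.36, 4.48 and 5.05 FPKM in the libraries titled SPIN1, against 1.37, 0.760 and 0.966 FPKM in those titled NC. The lowest library titled SPIN1 was above the highest titled NC library, and the means of 4.30 ± 0.863 and 1.03 ± 0.309 FPKM (SD, n = 3 each) gave a ratio of 4.17. The log2 difference was 1.38 (SE 0.17, adjusted p = 0.00243), and with 1 library left out it ranged from 1.28 to 1.51 with adjusted p up to 0.0127. Its relative RAB3D, a Rab of secretory granules, had 9.24, 10.3 and 10.7 FPKM in the libraries titled SPIN1 and 11.3, 12.9 and 13.0 FPKM in those titled NC, and its log2 difference of -0.27 did not pass the threshold (SE 0.10, adjusted p = 0.0958). RAB3A supplied 29.7 ± 2.77% of the summed RAB3A and RAB3D level in libraries titled SPIN1, against 7.77 ± 2.71% in those titled NC (SD, n = 3 each).

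RAB8A, which directs vesicles to the plasma membrane and the primary cilium, lies on the plus strand at chr19:16222439-16245044 (hg19). It had 17.4, 32.8 and 36.1 FPKM in the libraries titled SPIN1, against 4.96, 14.6 and 8.33 FPKM in those titled NC. The groups did not overlap, but both were wide, with means of 28.8 ± 10.0 and 9.29 ± 4.88 FPKM (SD, n = 3 each) and a ratio of 3.10. The log2 difference of 1.58 (SE 0.41, adjusted p = 0.0328) was no longer past the threshold without titled SPIN1 replicates 2 or 3 or without titled NC replicates 1 or 3, with adjusted p between 0.0751 and 0.101. RAB8B, its close relative, had 12.7, 9.22 and 12.2 FPKM in the libraries titled SPIN1 and 9.69, 11.6 and 11.2 FPKM in those titled NC, with a log2 difference of 0.05 (SE 0.14, adjusted p = 0.803).

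RAB13, which serves traffic to tight junctions and the cell surface, lies on the minus strand at chr1:153954093-153958834 (hg19). It had 7.61, 8.32 and 10.4 FPKM in the libraries titled SPIN1, against 4.45, 4.69 and 4.64 FPKM in those titled NC. The titled NC libraries lay close together, and every titled SPIN1 library was above them, with means of 8.76 ± 1.42 and 4.59 ± 0.124 FPKM (SD, n = 3 each) and a ratio of 1.91. The log2 difference was 0.79 (SE 0.13, adjusted p = 0.00573), and with 1 library left out it ranged from 0.68 to 0.88 with adjusted p up to 0.0259.

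RAB27A and RAB27B, the pair of Rabs that dock secretory granules, melanosomes and exosome-bearing compartments, were called in opposite directions. RAB27A (chr15:55495164-55611311, minus strand, hg19) had 6.42, 6.13 and 6.35 FPKM in the libraries titled SPIN1, against 7.82, 9.03 and 8.26 FPKM in those titled NC. It fell in all titled SPIN1 libraries relative to all titled NC libraries, with a log2 difference of -0.36 (SE 0.10, adjusted p = 0.0331). That call was lost without titled SPIN1 replicates 2 or 3 or titled NC replicates 2 or 3, with adjusted p between 0.0707 and 0.136. RAB27B (chr18:52385091-52562747, plus strand, hg19) had 2.23, 2.12 and 3.74 FPKM in the libraries titled SPIN1, against 1.25, 1.10 and 1.43 FPKM in those titled NC. The rise was 2.14-fold in the means, 2.70 ± 0.903 against 1.26 ± 0.166 FPKM (SD, n = 3 each), with a log2 difference of 0.69 (SE 0.18, adjusted p = 0.0312), and the call was lost without any 1 of the 3 titled NC libraries (adjusted p between 0.0647 and 0.0998). RAB27A supplied 70.5 ± 6.52% of the summed level of the pair in libraries titled SPIN1, against 86.9 ± 2.04% in those titled NC (SD, n = 3 each).

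The remaining secretory members were RAB10, RAB8B, RAB3D and RAB26. RAB10, which carries glucose transporter vesicles in fat cells, was even across the libraries at 34.5 ± 2.78 FPKM in those titled SPIN1 and 33.7 ± 1.68 FPKM in those titled NC (SD, n = 3 each). RAB26 had 1.34, 1.39 and 2.80 FPKM in libraries titled SPIN1 and 1.22, 0.890 and 0.164 FPKM in libraries titled NC, and its groups were apart with an adjusted p of 0.125.

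Promoter windows of RefSeq on GRCh38.p14 were read for the Rab genes, from 250 bases before to 50 bases after each annotated start. A window was found for 38 of the 46 genes, 58 windows in all, and for 10 of the 11 called genes. The GC box GGGCGG, searched on both strands, was in 81.0% of the Rab windows and in 45.0% of all 35116 windows. All 35116 windows were not limited to genes tested here, as the Rab windows were, so the 2 sets are unlike. By gene, the GC box was in a window of 36 of the 38 Rab genes with a window. These included all 10 called genes with a window, 7 that rose and 3 that fell, so the motif did not set the called genes apart. The windows of RAB3A and RAB8A are shown as those of the genes with the largest rises on the log2(FPKM + 1) scale. They run 5′ to 3′ along the gene's strand, over the 250 bases before the start, with the GC box or its reverse complement in capitals.

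RAB3A, chr19:18204043-18204292, minus strand: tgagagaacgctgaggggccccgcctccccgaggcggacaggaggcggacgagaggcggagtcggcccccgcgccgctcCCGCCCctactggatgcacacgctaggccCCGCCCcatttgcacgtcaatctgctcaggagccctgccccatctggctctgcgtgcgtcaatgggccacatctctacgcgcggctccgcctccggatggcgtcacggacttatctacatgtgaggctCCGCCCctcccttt

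RAB8A, chr19:16111639-16111888, plus strand: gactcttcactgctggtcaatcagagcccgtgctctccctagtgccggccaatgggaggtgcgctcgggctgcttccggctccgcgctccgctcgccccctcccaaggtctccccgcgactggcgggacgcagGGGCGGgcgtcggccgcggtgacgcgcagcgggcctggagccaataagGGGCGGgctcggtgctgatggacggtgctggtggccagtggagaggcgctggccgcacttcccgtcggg

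RAB3A had 3 such matches and RAB8A had 2, none overlapping another of the 6 motifs searched. The AP-1 motif TGANTCA was in 12.1% of the Rab windows and in 7.71% of all windows, and among called genes it was found for RAB13, RAB27A and RAB27B. The RAB27 pair is shown because its members were called in opposite directions and both held this motif, here in capitals. The motif was chosen for display after the values were seen.

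RAB27A, chr15:55270400-55270649, minus strand: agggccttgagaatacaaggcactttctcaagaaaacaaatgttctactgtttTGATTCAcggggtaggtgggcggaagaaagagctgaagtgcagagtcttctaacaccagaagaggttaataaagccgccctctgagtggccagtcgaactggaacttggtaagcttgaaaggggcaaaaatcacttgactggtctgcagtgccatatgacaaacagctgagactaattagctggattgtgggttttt

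RAB27B, chr18:54828227-54828476, plus strand: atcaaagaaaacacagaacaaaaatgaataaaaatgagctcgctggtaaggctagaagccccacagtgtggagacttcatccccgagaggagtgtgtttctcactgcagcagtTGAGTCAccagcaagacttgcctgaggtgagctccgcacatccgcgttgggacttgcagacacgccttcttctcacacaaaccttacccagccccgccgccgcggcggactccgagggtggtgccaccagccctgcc

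The match began 197 bases before the start in this RAB27A window, which is 1 of 2 windows of its 5 that held the motif, and 137 bases before the start in the RAB27B window, which is 1 of its 2. Of the other motifs, CCAAT was in 32.8% of Rab windows and 34.6% of all windows, the E-box CACGTG in 10.3% and 7.26%, the amino acid response motif TGATGNAA in 1.72% and 3.62%, and the E2F motif, TTTCGCGC or TTTGGCGC, in 0% and 1.15%. Windows of 1 gene can overlap, CACGTG reads the same on both strands, and a match describes letters only.

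**Figure D3:**
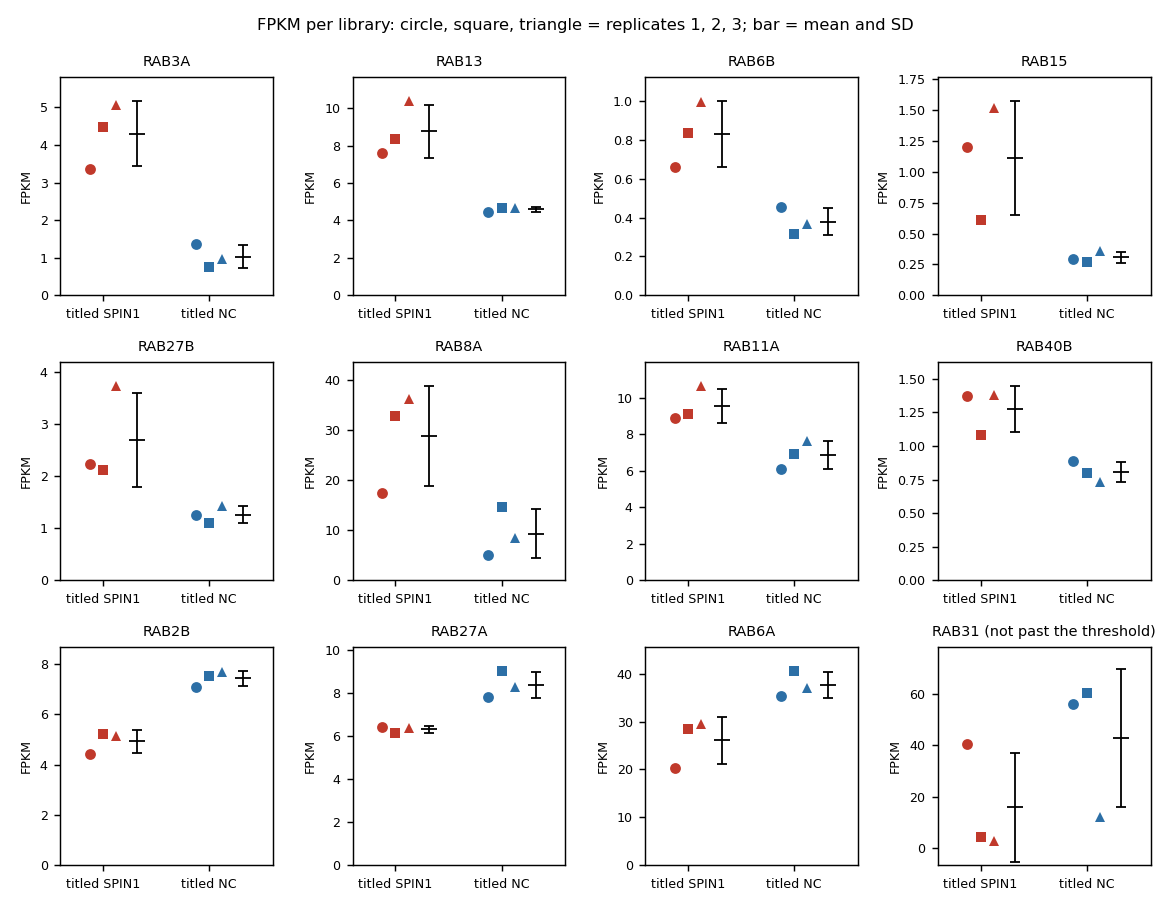
FPKM of the 11 called Rab genes and of RAB31 in each library, with 1 panel per gene; titled SPIN1 is on the left in red, titled NC on the right in blue, symbols are replicates 1, 2 and 3, and bars are the mean and SD (n = 3). In the 11 called genes the symbols of the groups do not overlap, and in RAB31 they do, with 40.5 FPKM in titled SPIN1 replicate 1 and 12.2 FPKM in titled NC replicate 3.

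Recycling Rabs return internalised receptors to the cell surface. Of 7 members, 2 rose (RAB11A and RAB15) and none fell, or 28.6% and 0%, where 17.3% of all genes were called higher and 10.3% lower. Before adjustment 4 of the 7 had a p under 0.05, where 40.2% of all genes tested did. Their summed level was 149, 147 and 139 FPKM in the libraries titled SPIN1, against 130, 115 and 114 FPKM in those titled NC, and these sums did not overlap. Without RAB11B, which was not called, they were 45.7, 45.2 and 50.1 FPKM in libraries titled SPIN1 and 42.0, 43.0 and 46.7 FPKM in libraries titled NC, and overlapped. RAB11A (chr15:66018392-66184329, plus strand, hg19), the main Rab of the recycling endosome, had 8.89, 9.12 and 10.7 FPKM in the libraries titled SPIN1, against 6.09, 6.94 and 7.64 FPKM in those titled NC. The rise was modest, with a log2 difference of 0.42 (SE 0.12, adjusted p = 0.0414). It was past the threshold in 1 of the 6 fits with a library left out, the one without titled SPIN1 replicate 1; in the other fits the adjusted p was between 0.0596 and 0.115.

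RAB11B, on average more than 10 times as abundant per length as RAB11A, had 104, 102 and 88.5105 FPKM in the libraries titled SPIN1, against 88.507, 72.3 and 66.9 FPKM in those titled NC. The groups met within 0.01 FPKM, and the log2 difference of 0.37 had an adjusted p of 0.0710 (SE 0.13). Without titled NC replicate 1 the difference was 0.49 with an adjusted p of 0.0305. RAB15 (chr14:65412532-65439494, minus strand, hg19), an endocytic Rab, was near the low end at 1.20, 0.609 and 1.52 FPKM in the libraries titled SPIN1, against 0.291, 0.272 and 0.361 FPKM in those titled NC. Its log2 difference of 0.66 (SE 0.17, adjusted p = 0.0270) is on a scale that understates changes of low genes, and it was past the threshold only without titled SPIN1 replicate 2 among the 6 fits with a library left out (adjusted p between 0.0590 and 0.0825 in the others). RAB4A, RAB4B, RAB14 and RAB35 did not pass the threshold, with log2 differences between -0.41 for RAB4B and 0.29 for RAB4A. RAB14 and RAB35 were close to 0, at 0.04 and -0.02.

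None of the 7 early endosome Rabs passed limma's test, where 27.6% of all genes did. Before adjustment 1 of them, RAB5A, had a p under 0.05, where 40.2% of all genes did. RAB5A, which drives early endosome fusion, had 3.18, 2.97 and 4.37 FPKM in the libraries titled SPIN1, against 4.45, 5.77 and 5.54 FPKM in those titled NC. The groups were apart by a small margin, and the log2 difference of -0.48 had an adjusted p of 0.0626 (SE 0.16), or 0.0321 without titled SPIN1 replicate 3. RAB5C was the main RAB5 form in every library, at 56.8 ± 6.05 FPKM in those titled SPIN1 and 50.6 ± 2.80 FPKM in those titled NC (SD, n = 3 each; adjusted p = 0.296). RAB5B, RAB20, RAB21 and RAB22A had log2 differences between -0.09 for RAB5B and -0.04 for RAB22A.

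RAB31, an endosomal Rab also known as a driver of exosome formation, was singled out after its values were seen, because its libraries disagreed within each title. It had 40.5, 4.46 and 2.88 FPKM in the libraries titled SPIN1, against 56.2, 60.4 and 12.2 FPKM in those titled NC. Replicate 1 of titled SPIN1 was high and replicate 3 of titled NC was low for their titles, so the groups overlapped, with a range of 14.0-fold within titled SPIN1 and 4.96-fold within titled NC. The log2 difference was the largest in size among the 46 genes, at -1.91, but its standard error was 1.02 and its adjusted p 0.214. Without titled SPIN1 replicate 1 the difference was -2.96, with an adjusted p of 0.0373, and with all libraries, weighted by limma for their quality, it was -2.78 with an adjusted p of 0.0206. In all, 10 Rab genes had a range of at least 2-fold within a title. The early endosome sum of 106, 82.1 and 75.4 FPKM in libraries titled SPIN1, against 123, 132 and 77.9 FPKM in those titled NC, contains RAB31.

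None of the 5 Rabs of late endosomes, lysosomes and autophagy passed limma's test, where 27.6% of all genes did. Before adjustment 2 of them, RAB12 and RAB24, had a p under 0.05, a share near the 40.2% of all genes. RAB24, linked to autophagy, had 6.02, 5.19 and 5.08 FPKM in the libraries titled SPIN1, against 8.89, 6.40 and 7.88 FPKM in those titled NC. The log2 difference was -0.43 (SE 0.14, adjusted p = 0.0572), or -0.55 with an adjusted p of 0.0475 without titled NC replicate 2. RAB24 shares 2284 bases on the same strand with MXD3, a MAX-binding repressor gene, which had 5.23, 6.45 and 5.98 FPKM in the libraries titled SPIN1, against 1.72, 1.43 and 1.57 FPKM in those titled NC. The sum of both rows was 11.3, 11.6 and 11.1 FPKM in libraries titled SPIN1 and 10.6, 7.83 and 9.44 FPKM in libraries titled NC, so the summed level lay the other way from that of RAB24 alone. MXD3 by itself was called higher (log2 difference 1.42, adjusted p = 0.000675), and whether reads were shared between the rows was not tested. RAB9A, which acts in return from late endosomes to the Golgi, had 39.9, 19.8 and 41.3 FPKM in libraries titled SPIN1 and 31.8, 17.9 and 18.5 FPKM in libraries titled NC. Those groups overlapped (adjusted p = 0.300). RAB12, tied to lysosomal degradation of receptors, averaged 11.8 ± 1.19 FPKM in libraries titled SPIN1 and 9.74 ± 0.287 FPKM in those titled NC (SD, n = 3 each), with groups apart and an adjusted p of 0.116. RAB32, known from melanosomes and other lysosome-related organelles, averaged 19.0 ± 2.91 FPKM in libraries titled SPIN1 and 22.0 ± 1.52 FPKM in those titled NC (SD, n = 3 each), and its groups overlapped.

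Of 11 Rabs of the ER and the Golgi, 1 rose (RAB6B) and 2 fell (RAB2B and RAB6A). Together these calls were 27.3% of the members, near the 27.6% of all genes that were called. RAB2B (chr14:21927179-21945132, minus strand, hg19), which acts between ER and Golgi, had 4.40, 5.21 and 5.15 FPKM in the libraries titled SPIN1, against 7.11, 7.52 and 7.69 FPKM in those titled NC. All titled SPIN1 libraries were below all titled NC libraries, with a log2 difference of -0.51 (SE 0.10, adjusted p = 0.0122), which missed the threshold without titled NC replicate 2 (adjusted p = 0.0550) or replicate 3 (0.0506). Its relative RAB2A was more abundant, with 29.7, 34.0 and 34.5 FPKM in the libraries titled SPIN1 and 29.8, 31.7 and 32.9 FPKM in those titled NC, and its groups overlapped (log2 difference 0.05, SE 0.09, adjusted p = 0.712). RAB2A was 87.1%, 86.7% and 87.0% of the pair's sum in the libraries titled SPIN1, against 80.8%, 80.8% and 81.0% in those titled NC, shares that varied by under 1 percentage point within each title.

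RAB6A and RAB6B, the Golgi Rabs of retrograde and exocytic carriers, were called in opposite directions. RAB6A (chr11:73386683-73472182, minus strand, hg19) had 20.3, 28.4 and 29.5 FPKM in the libraries titled SPIN1, against 35.4, 40.7 and 37.1 FPKM in those titled NC. The log2 difference was -0.53 (SE 0.15, adjusted p = 0.0428), and the call was lost without titled SPIN1 replicate 2 or without any 1 titled NC library (adjusted p between 0.0686 and 0.131). RAB6B (chr3:133543083-133614680, minus strand, hg19), a form known from brain, had 0.657, 0.834 and 0.993 FPKM in the libraries titled SPIN1, against 0.453, 0.316 and 0.367 FPKM in those titled NC. Its log2 difference of 0.40 (SE 0.10, adjusted p = 0.0242) was lost without replicates 2 or 3 of either title, with adjusted p between 0.0603 and 0.0932. RAB6A stayed above 96% of the pair's sum in every library.

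RAB18, a Rab of the ER and lipid droplets, had 2.59, 3.36 and 3.58 FPKM in the libraries titled SPIN1, against 3.98, 5.18 and 5.52 FPKM in those titled NC. The groups were apart, and the log2 difference of -0.50 came close to the threshold (SE 0.15, adjusted p = 0.0531), with an adjusted p of 0.0390 without titled NC replicate 1. RAB1A, RAB30, RAB33B and RAB36 did not pass the threshold, with log2 differences between -0.03 for RAB33B and 0.28 for RAB36. RAB43, a Golgi Rab, had 2.03, 2.53 and 0.202 FPKM in the libraries titled SPIN1, against 1.94, 1.43 and 1.75 FPKM in those titled NC. Its value in titled SPIN1 replicate 3 stood apart from the other 5, and in that library alone the read-through row ISY1-RAB43, which shares 35227 bases of the same strand, had 1.78 FPKM, while it was listed at 0 in the other 5. The sum of both rows was 2.03, 2.53 and 1.98 FPKM in libraries titled SPIN1 and 1.94, 1.43 and 1.75 FPKM in libraries titled NC, without an outlying library.

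Among the 7 Rabs of the cilium and of other roles, 1 rose and none fell. These were 14.3% and 0%, where 17.3% of all genes were called higher and 10.3% lower. Before adjustment 3 of the 7 had a p under 0.05, again near the 40.2% of all genes. RAB40B (chr17:80612849-80656604, minus strand, hg19), an atypical Rab with a SOCS box that binds a ubiquitin ligase, had 1.37, 1.08 and 1.38 FPKM in the libraries titled SPIN1, against 0.886, 0.798 and 0.733 FPKM in those titled NC. Its log2 difference was 0.33 (SE 0.10, adjusted p = 0.0425), and it was past the threshold only without titled SPIN1 replicate 2 among the 6 fits with a library left out (adjusted p between 0.0720 and 0.137 in the others). RAB40C had 10.2, 3.71 and 6.37 FPKM in the libraries titled SPIN1 and 9.33, 1.50 and 6.88 FPKM in those titled NC. In both titles its replicate 2 was the lowest (adjusted p = 0.721). RAB23, which restrains Hedgehog signalling, and RAB42 had groups apart with higher values in libraries titled SPIN1 and adjusted p of 0.0848 and 0.0757. RAB28, RAB29 and RAB34 had log2 differences of -0.43, -0.08 and -0.05.

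In 12 pairs of genes with the same Rab number, the share of the first gene in the summed FPKM was compared. The groups did not overlap in 6 pairs, where 46.0% of all genes tested, taken singly, had groups apart. Each of the 6 pairs had an exact two-sided permutation p of 0.1, the smallest that 3 against 3 libraries allow, and 0.2 after adjustment over the 12 pairs. The shares reuse the FPKM given above, and the RAB2, RAB3, RAB6, RAB8 and RAB27 pairs each hold a called gene. RAB8A was 70.2 ± 10.9% of the RAB8 pair in libraries titled SPIN1, against 44.0 ± 11.0% in those titled NC. RAB5A was 5.85 ± 1.37% of RAB5A and RAB5C in libraries titled SPIN1, against 9.40 ± 1.22% in those titled NC, and RAB6A was 96.9 ± 0.208% of its pair in libraries titled SPIN1, against 99.0 ± 0.247% in those titled NC (SD, n = 3 each). The others were the RAB2, RAB3 and RAB27 pairs described above. RAB11A was 8.95 ± 1.56% of the RAB11 pair in libraries titled SPIN1 and 8.48 ± 1.92% in those titled NC (SD, n = 3 each; exact two-sided permutation p = 0.9). Both members were called in 2 pairs, 1 member in 5 and none in 5, where 27.6% of all genes were called.

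**Figure D4:**
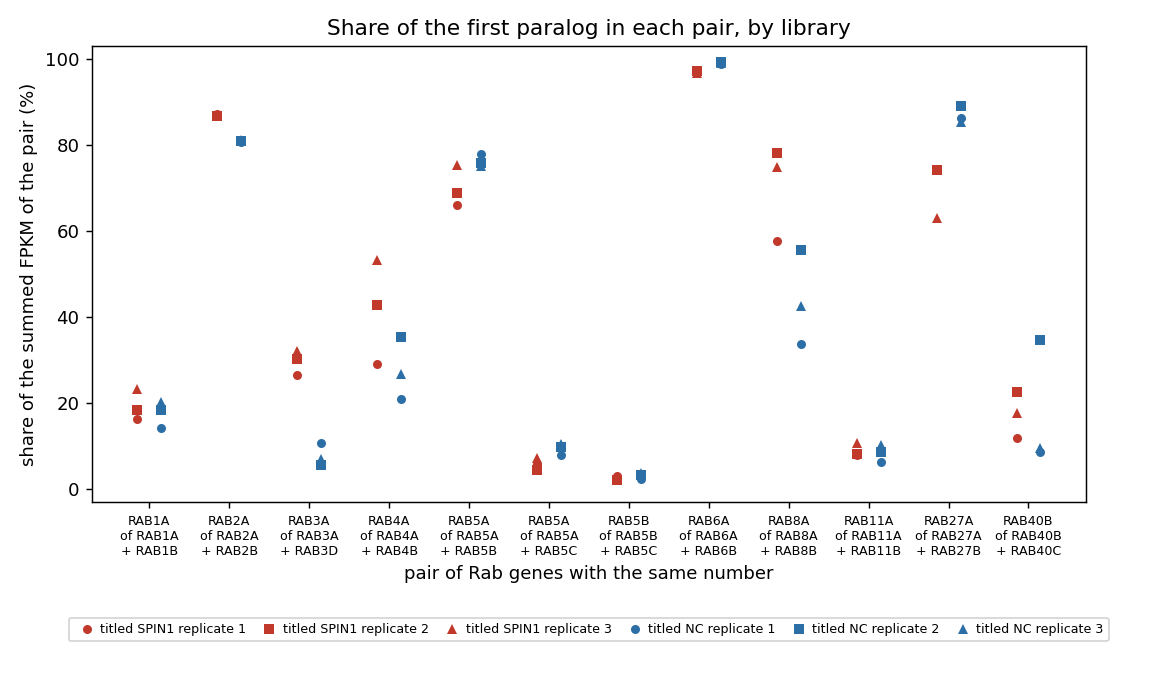
Share of the first gene in the summed FPKM of each of 12 pairs of Rab genes with the same number, in percent, with titled SPIN1 libraries in red on the left and titled NC libraries in blue on the right of each pair; circle, square and triangle are replicates 1, 2 and 3. The RAB2A shares lie near 87% in red and 81% in blue with little spread, while the RAB8A shares are wide in both colours.

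Of the 46 genes, 16 overlap another row of the table, 7 of them on the same strand. The library kit keeps strand, but no source used here says whether the counting used it, so values of overlapping genes are uncertain. Among called members, RAB27A shares 1930 bases with PIGBOS1 on its own strand. RAB11A shares 66240 bases with DENND4A on the opposite strand, where DENND4A was called lower and RAB11A higher. RAB15 shares 26963 bases with CHURC1-FNTB, RAB6B shares 1534 with SRPRB, RAB2B shares 377 with TOX4 and RAB3A shares 165 with MPV17L2, each on the opposite strand. RAB4B shares 18697 bases of its strand with the read-through row RAB4B-EGLN2, which had 2.49, 0.0372 and 1.72 FPKM in the libraries titled SPIN1, against 2.27, 2.38 and 0.0259 FPKM in those titled NC. RAB5C shares 29941 bases of its strand with AC099811.2, whose level was 16.4, 1.56 and 0.856 FPKM in libraries titled SPIN1, against 4.95, 1.14 and 4.89 FPKM in those titled NC. RAB3D, part of the sum behind the RAB3A share, overlaps TMEM205 by 3495 bases on its strand. TMEM205 had 11.9, 12.7 and 11.3 FPKM in libraries titled SPIN1, against 16.5, 9.76 and 10.3 FPKM in those titled NC.

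Genes that act on Rab proteins were taken from 4 lists with 141 rows tested, of which 7 rose and 14 fell. These were 4.96% and 9.93% of the rows, where 17.3% of all genes were called higher and 10.3% lower, and the median log2 difference was -0.04. Higher and lower calls numbered 12 and 11 without titled SPIN1 replicate 1, 7 and 4 without replicate 2, and 6 and 8 without replicate 3. They numbered 6 and 9 without titled NC replicate 1, 4 and 2 without replicate 2, and 7 and 5 without replicate 3. In the list of prenylation and recycling, 1 of 7 members rose and none fell. These were 14.3% and 0%, where 17.3% of all genes were called higher and 10.3% lower. Before adjustment 3 of the 7 had a p under 0.05, where 40.2% of all genes did. GDI2, a GDP dissociation inhibitor, had 57.0, 56.3 and 66.7 FPKM in the libraries titled SPIN1, against 42.4, 41.1 and 47.1 FPKM in those titled NC. The groups did not overlap, and the log2 difference was 0.45 (SE 0.10, adjusted p = 0.0194). The call was lost without titled SPIN1 replicate 3 or without titled NC replicates 1 or 2, with adjusted p between 0.0516 and 0.0791.

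Of 49 exchange factor genes, 1 rose and 8 fell. These were 2.04% and 16.3%, where 17.3% of all genes were called higher and 10.3% lower. TRAPPC2L, a subunit of the TRAPP tethering and exchange complexes, rose to 9.76 ± 0.530 FPKM in libraries titled SPIN1, against 6.46 ± 0.232 FPKM in those titled NC (SD, n = 3 each; log2 difference 0.53, SE 0.09, adjusted p = 0.00771). DENND1A, an exchange factor of RAB35, fell to 2.92 ± 0.435 FPKM in libraries titled SPIN1, against 4.77 ± 0.361 FPKM in those titled NC (SD, n = 3 each; log2 difference -0.56, SE 0.12, adjusted p = 0.0162). DENND2D, of a family linked to RAB9, and MON1B, part of the exchange factor of RAB7, fell by 0.33 and 0.39 on the log2 scale (SE 0.07 and 0.09, adjusted p = 0.0173 and 0.0197). The others that fell were DENND4B, DENND4A, TRAPPC6A, RGP1 and RAB3IP. DENND1A lost its call without replicate 2 of either title, and DENND2D and MON1B without titled SPIN1 replicate 2 or titled NC replicates 2 or 3, with adjusted p up to 0.0898. RAB3IP, the RAB8 exchange factor also called Rabin8, was looked at after the values were seen, and had 1.54, 1.47 and 1.33 FPKM in the libraries titled SPIN1, against 1.91, 2.29 and 2.02 FPKM in those titled NC (adjusted p = 0.0484), where RAB8A itself rose. The RAB3IP call with a library left out is not given, and that of RAB8A was lost in 4 of 6 such fits. A link between RAB3IP and RAB8A was not tested.

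Of 37 GTPase-activating proteins of the TBC and related families, 3 rose and 4 fell. These were 8.11% and 10.8%, where 17.3% of all genes were called higher and 10.3% lower. TBC1D2, which acts on RAB7, had 4.76, 4.91 and 5.40 FPKM in the libraries titled SPIN1, against 10.0, 9.37 and 9.92 FPKM in those titled NC. TBC1D8 had 9.73, 10.7 and 11.4 FPKM in the libraries titled SPIN1, against 4.21, 5.32 and 6.02 FPKM in those titled NC. The log2 differences were -0.84 for TBC1D2 (SE 0.09, adjusted p = 0.00174) and 0.92 for TBC1D8 (SE 0.14, adjusted p = 0.00473), and both calls held without any 1 library. TBC1D1, a regulator of glucose transporter traffic in muscle, rose by 0.42, and TBC1D25, a regulator of autophagosome fusion, fell by 0.45 on the log2 scale (SE 0.08 and 0.09, adjusted p = 0.00981 and 0.0128). Both missed the threshold without titled NC replicate 2, at adjusted p = 0.0518 and 0.0560. TBC1D19 also rose, and TBC1D5 and TBC1D20 also fell.

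Of 48 effector genes, 2 rose and 2 fell. Each direction was 4.17%, where 17.3% of all genes were called higher and 10.3% lower. SYTL4, or granuphilin, which binds RAB27 and docks secretory granules, had 3.50, 2.70 and 3.23 FPKM in the libraries titled SPIN1, against 0.889, 1.18 and 1.44 FPKM in those titled NC. MLPH, or melanophilin, which links RAB27A to a myosin motor, had 1.64, 1.49 and 1.18 FPKM in the libraries titled SPIN1, against 0.545, 0.653 and 0.615 FPKM in those titled NC. Each rose with groups apart, by 0.94 for SYTL4 (SE 0.14, adjusted p = 0.00431) and 0.60 for MLPH (SE 0.10, adjusted p = 0.00708) on the log2 scale. GOLGA2, or GM130, a Golgi tether that binds RAB1, fell to 6.36 ± 0.149 FPKM in libraries titled SPIN1, against 9.44 ± 0.535 FPKM in those titled NC (SD, n = 3 each; log2 difference -0.50, SE 0.09, adjusted p = 0.00883). RILPL1, which binds RAB8 and RAB10 after their phosphorylation, fell by 0.46 (SE 0.13, adjusted p = 0.0414), a call past the threshold only without titled NC replicate 3 among the 6 fits with a library left out (adjusted p between 0.0597 and 0.120 in the others). The calls of TRAPPC2L, TBC1D2, TBC1D8, SYTL4, MLPH and GOLGA2 held without any 1 library.

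**Figure D5:**
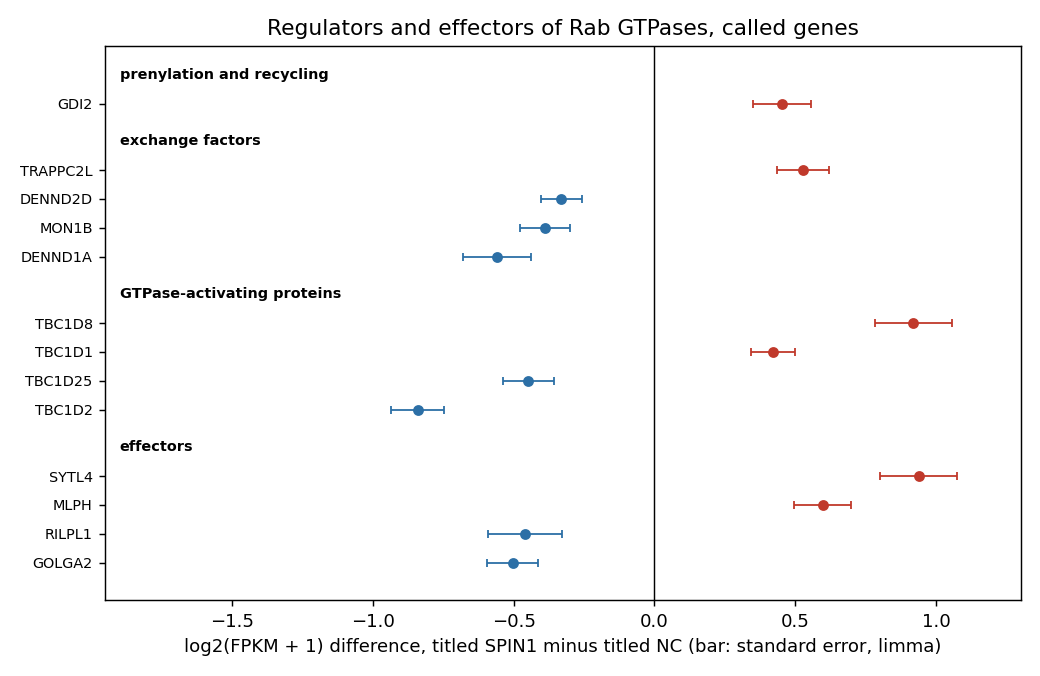
Log2 difference, titled SPIN1 minus titled NC, on the log2(FPKM + 1) scale for up to 4 called genes of each list of Rab regulators and effectors, those with the smallest adjusted p; bars are standard errors from limma, red marks higher and blue lower. TBC1D2 and TBC1D8 lie on opposite sides at -0.84 and 0.92, and GDI2 lies at 0.45.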

How the data were processed

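Poly(A) RNA of 6 libraries, 3 titled SPIN1 and 3 titled NC, was made into stranded paired-end libraries and sequenced on a NovaSeq instrument, per the labels' protocols. The submitters' processing notes name FastQC, cutadapt, HISAT2, StringTie and the build hg19, with no version. Per the labels, the deposited table holds FPKM per gene. FPKM divide by gene length and library total, so a few abundant genes can shift all others. Low values showed no steps of whole reads, but only 12 to 35 genes were under 0.15 FPKM in both of any 2 libraries of a title. So few genes could miss such steps. Depth could not be recovered and no interval is given. From these values, log2(FPKM + 1) was fitted with limma 3.58.1 in R 4.3.3, with trend and robust moderation, over the 11061 genes that averaged 0.5 FPKM or more. The difference is titled SPIN1 minus titled NC, p-values were adjusted by the Benjamini-Hochberg method over all genes tested, and the threshold was 0.05. On the log2(FPKM + 1) scale the change of low genes is understated. The fit was tested on simulated data with independent noise in each gene and library. That test does not cover variation shared by genes within a library.

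The members, role groups and partner lists were chosen with earlier results of these data known, so their counts are descriptions. Values per library are given for called Rab genes and their same-number relatives, the 3 most abundant, and up to 4 uncalled genes with groups apart. RAB9A, RAB26, RAB31, RAB43 and RAB3IP were added after their values were seen. Of each partner list, up to 4 called genes with the smallest adjusted p are given. Alternatives were other pseudocounts, filters, scalings and moderation, library weights, a replicate block and leaving out libraries. Of 158 partner symbols, 140 were tested, as 141 rows since 1 symbol has more than 1 row; 1 further gene of the pathway is not reported here. Same-numbered libraries had correlations of their deviations of 0.216, 0.0551 and 0.148, against -0.211 to 0.0757 for libraries with different numbers. The labels do not state a pairing by number, so the main fit did not treat the numbers as pairs. Promoter sequences are from RefSeq, GRCh38.p14.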

Additional observations from a re-analysis of the deposited data

How the results depend on the processing

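The 8 higher and 3 lower Rab calls, the 7 higher and 14 lower partner calls and the Rab median log2 difference of 0.048 were recomputed under each alternative. With a filter of a mean of at least 2 FPKM, 34 Rab genes were tested and 4 were higher; RAB6B, RAB15, RAB40B and RAB27B then had no value. Median scaling gave 7 lower Rab genes and a Rab median of -0.024, and quantile normalization gave 7 lower Rab genes, 24 lower partners and a Rab median of -0.031. Weights per library called more genes table-wide, 28.1% of all genes higher and 20.8% lower, with 16 higher and 8 lower Rab genes, 30 higher and 35 lower partners and a Rab median of 0.19. Adding a replicate block gave 7 higher and 5 lower Rab genes and 13 higher and 12 lower partners, while the samples share only a number: 5 of the 6 libraries correlated best with their own number in the other title. With the block the calls of RAB40B and RAB6B were lost (adjusted p = 0.0599 and 0.0534), and RAB11B, RAB18 and RAB24 were called. Asking also for a log2 difference of 1 or more left 2 higher and 0 lower Rab genes, and 0 higher and 0 lower partners. Without both libraries numbered 1 the Rab median was 0.10. Leaving out 1 library gave 2 to 7 higher and 0 to 4 lower Rab genes, 4 to 12 higher and 2 to 11 lower partners, and Rab medians of 0.062 to 0.16. These fits have fewer samples; otherwise the cause was not tested.

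Uncalled differences that changed sign were small or wide. RAB7A was -0.069 after median scaling, -0.037 after quantile normalization and -0.065 with weights, and with 1 library left out it ranged from -0.25 to 0.17, below 0 without titled SPIN1 replicate 3 (-0.25), titled NC replicate 2 (-0.12) or titled NC replicate 3 (-0.041). RAB2A was -0.020 after median scaling and -0.019 after quantile normalization. RAB8B was -0.014 and -0.024 after those scalings, -0.20 with weights and -0.098 without both libraries numbered 1, and with 1 library left out it was between -0.026 (titled SPIN1 replicate 1) and its highest value of 0.19, with -0.017 without titled NC replicate 1. RAB40C ranged from -0.30 (without titled NC replicate 2) to 0.72. Of 552 values of single genes under the alternatives, 446 kept their sign and side of the threshold, 66 lost and 25 gained the call, and 15 changed sign. Depth is unknown and limits what low genes can show.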
